A study of Mus musculus with 18 samples.

Results

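Gdpd3 and 6 related genes of glycerophosphodiester, lysophospholipid and N-acylethanolamine metabolism (Gdpd1, Gdpd2, Gdpd5, Gde1, Napepld and Enpp2) were followed across skeletal muscles that had lost EglN1 and hearts exposed to an EglN inhibitor. A member was any gene of this list whose symbol the platform annotation gave to a probe set, and 6 of the 7 listed genes, of 19938 genes in all, had 1 probe set each. Enpp2, which encodes the secreted lysophospholipase D autotaxin, is not analysed here. Gdpd3 was chosen by its measured difference between KO and WT muscle on these same arrays, so its KO and WT values are a description, without a test. The other members were chosen as its relatives by protein family or by function.

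Whole-transcript arrays measured RNA in 18 mouse samples, 3 in each of 6 groups, all from mice back-crossed to C57BL/6. The sample labels name soleus, quadriceps and heart, although the title of the series speaks of smooth muscle. KO soleus and KO quadriceps came from mice with a floxed EglN1 gene and a Cre recombinase of skeletal muscle, and both WT muscles came from mice with the same recombinase and a wild-type EglN1 gene; all of these mice received tamoxifen for 3 days before the tissues were taken. FG-4497 hearts came from EglN1 wild-type mice given this EglN inhibitor into the peritoneum at 50 mg per kg, and vehicle hearts from EglN1 wild-type mice taken at the same time. The sources used here do not give the age of the mice, the promoter driving the recombinase or the time between drug and harvest. Numbers in the labels, read here as animal numbers, joined each soleus to a quadriceps of the same mouse, giving 3 KO and 3 WT mice.

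Gdpd3 and Gdpd1 encode membrane-bound enzymes of the glycerophosphodiester phosphodiesterase family that act as lysophospholipases D: they cut the head group from a lysophospholipid such as lysophosphatidylcholine and leave lysophosphatidic acid (LPA), a lipid that signals through its own receptors. The same reaction on N-acylated lysophospholipids releases N-acylethanolamines, the lipid family that includes anandamide, and Napepld encodes the enzyme that makes N-acylethanolamines directly from N-acylphosphatidylethanolamine. EglN1 uses oxygen to hydroxylate HIF, the hypoxia-inducible factor, which leads to its destruction, and HIF binds DNA at a short core motif.

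Because HIF is the factor that EglN1 restrains, the 250 bases before the annotated start of Gdpd3 and of Gdpd1, its lysophospholipase D relative, are shown with each match to the HIF core letters ACGTG or GCGTG, on either strand, in capitals. Both are RefSeq sequences of the GRCm38.p6 assembly, written 5′ to 3′ along the gene. The Gdpd3 window is chr7:126766164-126766413 on the plus strand and the Gdpd1 window is chr11:87074138-87074387 on the minus strand.
Gdpd3: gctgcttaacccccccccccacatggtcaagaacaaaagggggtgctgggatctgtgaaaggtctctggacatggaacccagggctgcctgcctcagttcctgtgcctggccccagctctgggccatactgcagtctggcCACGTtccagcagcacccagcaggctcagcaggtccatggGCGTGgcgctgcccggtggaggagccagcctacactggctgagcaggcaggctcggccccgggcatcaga
Gdpd1: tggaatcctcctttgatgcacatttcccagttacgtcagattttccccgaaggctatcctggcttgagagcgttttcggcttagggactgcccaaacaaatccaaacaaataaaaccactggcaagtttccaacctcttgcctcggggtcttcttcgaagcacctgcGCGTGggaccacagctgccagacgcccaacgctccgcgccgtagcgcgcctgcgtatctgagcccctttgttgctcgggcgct

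The Gdpd3 window held 2 matches, ACGTG on the opposite strand at bases 110 to 106 before the start and GCGTG on the gene's own strand at bases 70 to 66. The Gdpd1 window held 1, GCGTG at bases 83 to 79. Napepld held 2, both GCGTG, and Gde1 and the start windows of Gdpd2 held 0. Such letters are common: 12679 of 32851 promoter windows of this length (38.6%) held at least 1 match and 16.7% held 2 or more. Promoter entries were found for 5 of the members. A match describes the letters only, and binding was not measured.

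Log2 medians ran from 6.68 to 6.81. The RMA processing of the deposited values draws medians together, so they say little about single arrays. Arrays within a group had correlations of 0.986 to 0.994 with each other. Precision is limited by 3 arrays per group. Marker genes fitted the labelled tissues: the mean log2 level of 10 slow-fibre genes was 13.22 to 13.39 in soleus and 7.62 to 9.42 in quadriceps, and that of 8 cardiomyocyte genes was 11.91 to 12.06 in heart, against 7.88 to 8.43 in muscle. Egln1 itself averaged 11.07 in KO soleus and 11.27 in WT soleus, and 10.82 in KO quadriceps and 10.96 in WT quadriceps. Its KO arrays lay below its WT arrays in both muscles, but neither difference (-0.20, standard error (SE) 0.07, limma adjusted p = 0.438 in soleus, and -0.14, SE 0.07, adjusted p = 0.47 in quadriceps) passed the test. The probe set summarises the whole transcript and the labels do not say which part was deleted, so these values check the genotype only in part. RNA was taken from whole tissue, where a change in the number of cells of a type and a change in RNA per cell cannot be told apart.

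Gdpd3 (probe set 10557470) lies on chr7:126766414-126775645 of GRCm38.p6. In soleus it read 9.04, 9.90 and 9.33 on the log2 scale in KO mice, against 5.15, 5.09 and 6.00 in WT mice. In quadriceps it read 8.64, 9.50 and 8.93 in KO mice, against 5.47, 5.66 and 5.17 in WT mice. All 6 KO arrays were thus far above all WT arrays of either muscle, and within a muscle the lowest KO reading was well clear of the highest WT reading.

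The KO mean exceeded the WT mean by 4.01 on the log2 scale in soleus (9.43 ± 0.43 in KO and 5.41 ± 0.51 in WT, SD, n = 3 each). In quadriceps it exceeded it by 3.59 (9.02 ± 0.44 in KO and 5.43 ± 0.25 in WT, SD, n = 3 each). All WT muscle readings lay below 6.19, the level under which genes were left out of the tests, and Gdpd3 passed that filter only through its KO arrays. Measured from that level, KO soleus was at least 9.39-fold higher and KO quadriceps at least 7.11-fold higher than WT. Leaving out any 1 array of a muscle kept the difference between 3.81 and 4.28 in soleus and between 3.38 and 3.74 in quadriceps. The difference in soleus was 0.42 larger than that in quadriceps, which is smaller than the spread among the KO arrays of either muscle.

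The KO arrays of the same mouse ranked alike in both muscles. The mouse with the highest reading in soleus (9.90) also had the highest in quadriceps (9.50), and the mouse with the lowest in soleus (9.04) had the lowest in quadriceps (8.64). Soleus exceeded quadriceps by 0.41, 0.40 and 0.40 in the 3 KO mice, whereas the differences in the 3 WT mice were -0.02, -0.38 and 0.34. In KO mice, then, the highest and the lowest mouse lay further apart than the 2 muscles of a mouse. The 2 lower KO mice (9.04 and 9.33 in soleus, 8.64 and 8.93 in quadriceps) lay closer together than the 2 muscles did. In WT mice, where all readings lay below the filter level, the muscles differed in no common direction. These differences come from the arrays on which Gdpd3 was chosen and are given without a test.

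**Figure D1:**
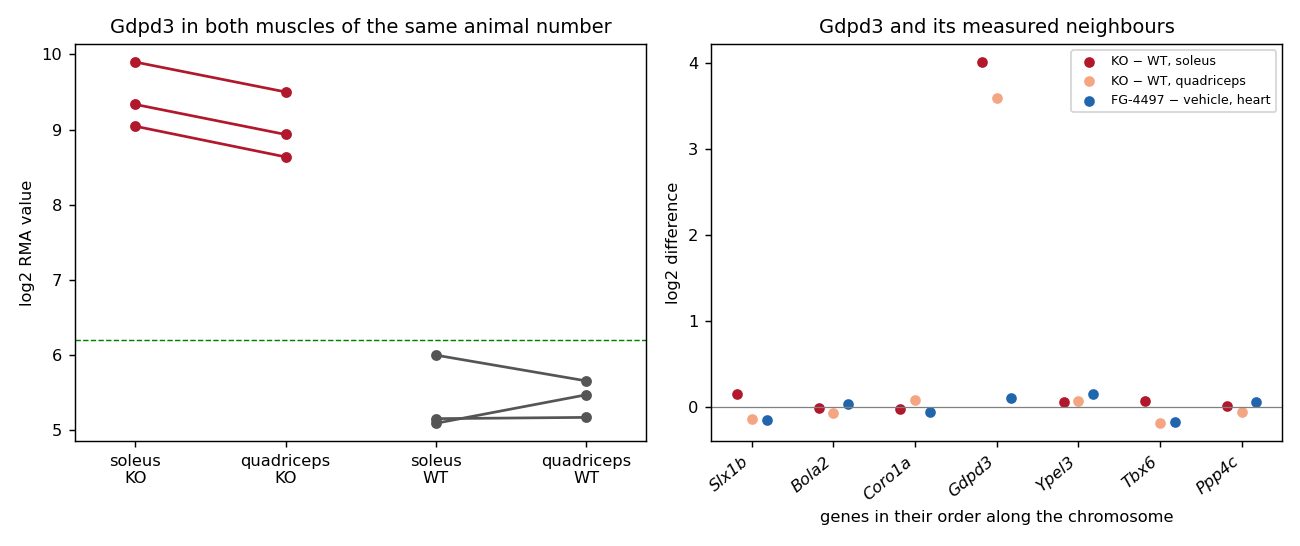
Left, Gdpd3 log2 values in soleus and quadriceps, with a line joining the arrays of one mouse and a dashed line at the filter level of 6.19: the 3 KO lines run parallel and far above the 3 WT lines. Right, log2 differences of Gdpd3 and of 3 measured genes on each side for KO minus WT in soleus and quadriceps and FG-4497 minus vehicle in heart: Gdpd3 stands at 4.01 and 3.59 while its neighbours lie near 0.

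In heart, with or without the inhibitor, Gdpd3 read within the range of KO muscle and above all WT muscle arrays. Gdpd3 read 9.30, 9.26 and 9.35 in FG-4497 hearts, against 9.18, 9.26 and 9.15 in vehicle hearts. The lowest FG-4497 array lay just above the highest vehicle array, and of the 5 members tested in heart Gdpd3 was the 1 whose groups did not overlap, beside 15.5% of all genes. The difference of 0.11 (SE 0.08, 95% interval -0.06 to 0.28) did not pass the test (limma adjusted p = 0.757). The interval lies far below the differences between KO and WT muscle, for which Gdpd3 was chosen. Ordered by mean, the groups ran KO soleus, FG-4497 heart, vehicle heart, KO quadriceps, WT quadriceps and WT soleus. The arrays of KO soleus overlapped those of FG-4497 heart, those of vehicle heart overlapped those of KO quadriceps, and the WT muscles overlapped each other. The gap in this order lay between KO quadriceps and WT quadriceps. Heart and muscle came from separate experiments, and the sources used here do not say which arrays were normalized together, so this order is a description.

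**Figure D2:**
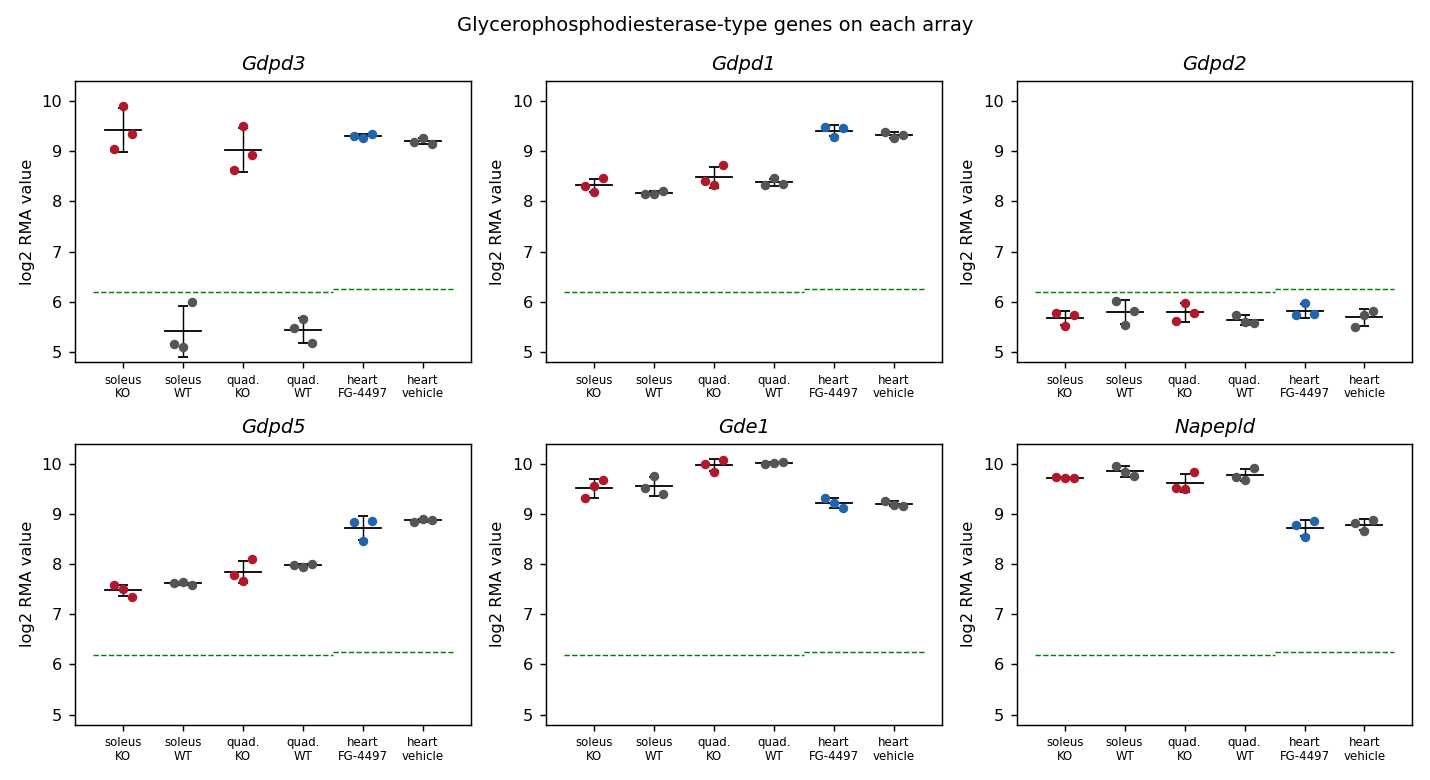
Log2 RMA value of the 6 measured members on each array (points), with the group mean and SD (bars, n = 3) and the filter level (dashed, 6.19 for muscle and 6.26 for heart; quad. stands for quadriceps). Gdpd3 reads below the level in WT muscle and between 8.64 and 9.90 in KO muscle and heart, Gdpd2 lies below the level on all 18 arrays, and the other 4 members differ by tissue more than by genotype or drug.

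The measured genes nearest to Gdpd3 did not share its pattern. The 3 nearest measured genes before it (Slx1b, Bola2 and Coro1a) and the 3 after it (Ypel3, Tbx6 and Ppp4c) differed between KO and WT by -0.02 to 0.15 in soleus (limma adjusted p from 0.841 to 0.993) and by -0.19 to 0.09 in quadriceps (adjusted p from 0.543 to 0.855). None of the 6 passed the test in either muscle or in heart. Ypel3, which starts at 126776963, close behind the end of Gdpd3, differed by 0.06 in soleus and 0.07 in quadriceps. On the other side the nearest measured gene, Coro1a, ends at 126704816, well before the Gdpd3 start at 126766414. The stretch between them was not read.

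Markers of other cell types were read beside these values. The mean log2 level of 8 adipocyte genes was 7.95 to 8.46 in KO soleus and 7.73 to 8.49 in WT soleus, and 7.71 to 7.88 in KO quadriceps and 7.36 to 7.90 in WT quadriceps, so the groups overlapped in both muscles. The median KO minus WT difference of the 7 adipocyte genes tested was 0.32 in soleus and 0.25 in quadriceps, and 0 of the 7 passed the test. No gene of the fibre, cardiomyocyte, adipocyte, fibroblast, endothelial, smooth muscle, macrophage or Schwann cell lists passed it between KO and WT in either muscle. By mean level per array, the groups did not overlap for Schwann cell genes in soleus, at 6.82 to 6.88 in KO mice and 6.90 to 7.05 in WT mice (3 genes), and overlapped for the other lists in soleus and for every list in quadriceps. The part of these cell types in the Gdpd3 values was not tested.

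Gdpd1, the nearest relative by activity, lies on chr11:87033794-87074137. In soleus it read 8.31, 8.19 and 8.46 in KO mice, against 8.14, 8.16 and 8.21 in WT mice. In quadriceps it read 8.40, 8.33 and 8.72 in KO mice, against 8.32, 8.46 and 8.36 in WT mice. The genotypes overlapped in both muscles. The differences were 0.15 in soleus (95% interval -0.05 to 0.35, limma adjusted p = 0.832) and 0.10 in quadriceps (95% interval -0.10 to 0.30, adjusted p = 0.757). The upper ends of these intervals, 0.35 and 0.30, lie far below the Gdpd3 differences of 4.01 and 3.59. Gdpd3 was chosen for the size of those differences, so this gap follows from the choice and tests nothing. In heart, Gdpd1 read 9.48, 9.29 and 9.46 with FG-4497 and 9.39, 9.27 and 9.33 with vehicle, a difference of 0.08 (SE 0.09, adjusted p = 0.876).

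Gde1 encodes a membrane phosphodiesterase that hydrolyses glycerophosphoinositol and the glycerophospho-N-acylethanolamines that give rise to anandamide, and lies on chr7:118688558-118705738. In soleus it read 9.31, 9.56 and 9.68 in KO mice, against 9.51, 9.76 and 9.39 in WT mice. In quadriceps it read 9.99, 9.84 and 10.08 in KO mice, against 9.99, 10.01 and 10.04 in WT mice. The genotypes overlapped in both muscles, and each quadriceps array lay above each soleus array. KO minus WT was -0.04 in soleus (SE 0.11, limma adjusted p = 0.985) and -0.05 in quadriceps (SE 0.11, adjusted p = 0.929). Heart values were 9.31, 9.22 and 9.12 with FG-4497 and 9.26, 9.19 and 9.16 with vehicle, which overlapped.

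Gdpd5 encodes the surface enzyme GDE2, known for cutting glycosylphosphatidylinositol anchors from proteins and for breaking down glycerophosphocholine. It lies on chr7:99381463-99461875. In soleus it read 7.58, 7.50 and 7.35 in KO mice, against 7.63, 7.64 and 7.58 in WT mice. In quadriceps it read 7.78, 7.67 and 8.10 in KO mice, against 7.98, 7.94 and 8.00 in WT mice. KO arrays lay just below WT arrays in soleus and overlapped them in quadriceps, with more spread among KO than among WT arrays in both. The differences, -0.14 in soleus (95% interval -0.36 to 0.07, limma adjusted p = 0.874) and -0.12 in quadriceps (95% interval -0.34 to 0.09, adjusted p = 0.712), did not pass the test. In heart it read 8.84, 8.45 and 8.87 with FG-4497 and 8.85, 8.90 and 8.89 with vehicle, a difference of -0.16 (SE 0.11, adjusted p = 0.749) in which 1 FG-4497 array lay well below the other 5.

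Napepld, on chr5:21662901-21701622, read 9.74, 9.72 and 9.72 in KO soleus, against 9.95, 9.84 and 9.75 in WT soleus. In quadriceps it read 9.52, 9.50 and 9.83 in KO mice, against 9.74, 9.67 and 9.91 in WT mice. The KO arrays of soleus were nearly identical and lay just below the WT arrays, while the quadriceps groups overlapped. The differences were -0.12 in soleus (95% interval -0.32 to 0.07, limma adjusted p = 0.887) and -0.16 in quadriceps (95% interval -0.35 to 0.04, adjusted p = 0.565). In heart it read 8.78, 8.54 and 8.85 with FG-4497 and 8.81, 8.67 and 8.88 with vehicle, again with overlap (-0.06, SE 0.10, adjusted p = 0.93).

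Gdpd2 encodes GDE3, a surface phosphodiesterase of glycerophosphoinositol, and lies on chrX:100729836-100738901. Its readings ran from 5.50 to 6.02 over all 18 arrays, below the filter level in every tissue, and it was not tested.

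Counted together, 0 of the 4 members other than Gdpd3 that were tested in muscle passed the limma test between KO and WT in soleus, where 0.18% of 13318 genes did, and 0 of 4 passed in quadriceps, where 0.683% did. Unadjusted p-values ran from 0.124 to 0.717 in soleus and from 0.109 to 0.677 in quadriceps, so 0 lay under 0.05. Groups did not overlap for 2 of the 4 in soleus (Gdpd5 and Napepld, beside 12.2% of all genes) and for 0 of the 4 in quadriceps (16.5% of all genes). The genotype difference did not change between the muscles in a way the test could detect: differences of the differences ran from -0.02 to 0.05 (adjusted p from 0.991 to 0.999), beside 0% of all genes called and 854 genes at an unadjusted p under 0.05. In heart, 0 of the 5 members tested passed (limma; unadjusted p from 0.188 to 0.887), beside 1.77% of 13431 genes. Both muscle comparisons draw on different mice from the heart comparison, while soleus and quadriceps share their mice.

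**Figure D3:**
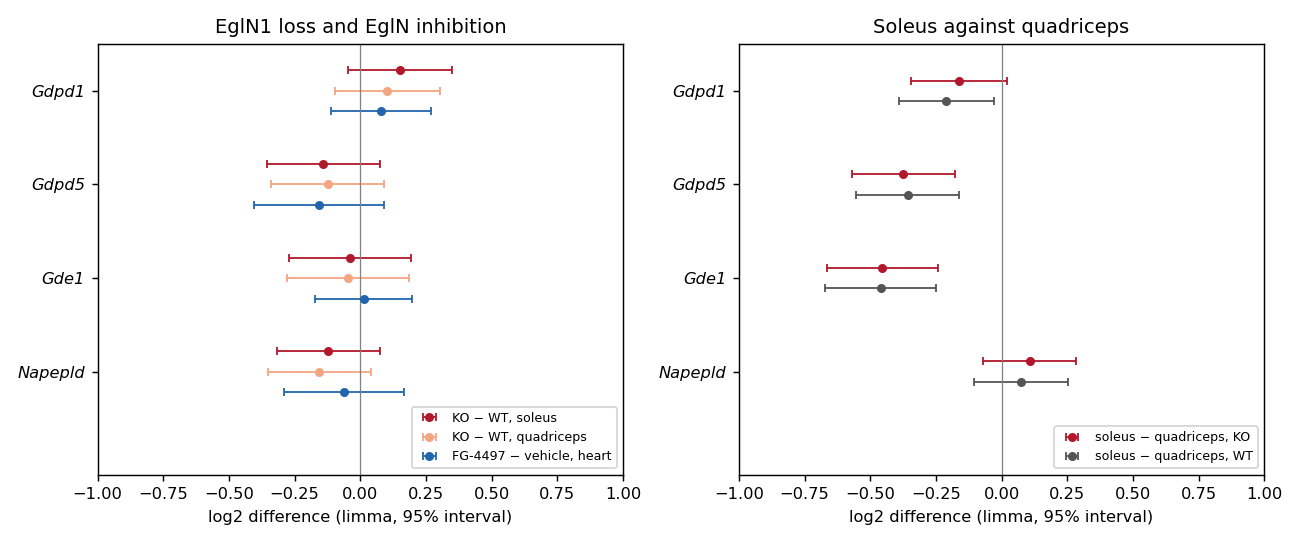
Log2 differences with 95% intervals from limma, n = 3 arrays per group: left, KO minus WT in soleus and quadriceps and FG-4497 minus vehicle in heart for the 4 members other than Gdpd3, all of whose intervals include 0. Right, soleus minus quadriceps in KO and WT mice for the same 4 members, where the Gdpd5 and Gde1 intervals lie below 0 in both genotypes.

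Between the muscles, Gde1 and Gdpd5 were lower in soleus than in quadriceps in both genotypes. For Gde1, soleus minus quadriceps on the log2 scale was -0.45 in KO mice (SE 0.10, limma adjusted p = 0.00214) and -0.46 in WT mice (SE 0.10, adjusted p = 0.00175). For Gdpd5 it was -0.37 in KO mice (SE 0.09, adjusted p = 0.00464) and -0.36 in WT mice (SE 0.09, adjusted p = 0.00556). All 3 mice of each genotype showed the direction in both genes. These were 2 of the 4 members other than Gdpd3 that were tested, beside 41.9% of all genes in KO mice and 45.7% in WT mice, so a difference between these muscles was common among genes at large. The arrays of the muscles did not overlap for 2 of the 4 in KO mice (46.6% of all genes) and for 3 of the 4 in WT mice, Gdpd1 being the third (53% of all genes). The level of slow-fibre genes moves with the muscle itself, and with that level as a covariate neither gene passed (adjusted p = 0.977 and 0.963 for Gde1, and 0.995 and 0.993 for Gdpd5, in KO and in WT mice).

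For Gdpd1, soleus minus quadriceps was -0.16 in KO mice (SE 0.08, limma adjusted p = 0.142) and -0.21 in WT mice (SE 0.08, adjusted p = 0.0564). The WT difference had an adjusted p of 0.0165 with the animal as a fixed replicate block. Napepld differed by 0.11 in KO mice (adjusted p = 0.333, or 0.0349 without quadriceps KO replicate 3) and by 0.07 in WT mice (adjusted p = 0.508).

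Across the 18 arrays, 4 members other than Gdpd3 fell into an opposed pair of patterns that followed tissue. Gdpd1 and Gdpd5 read highest in heart and correlated at r = 0.94, while Napepld read lowest in heart and correlated at r = -0.93 with Gdpd1 and r = -0.87 with Gdpd5. Gde1 followed Napepld at r = 0.72. Gdpd2 followed neither pattern (r from -0.25 to 0.05 with these 4). Gdpd3, which was high in heart and in KO muscle, correlated at r = 0.56 with Gdpd1 and r = -0.59 with Napepld. These 18 points share 3 tissues, so the values describe tissue levels and no p is given.

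The genes most like Gdpd3 over the 18 arrays, by Pearson r among 13372 genes, were Trappc2l (r = 0.96), Elovl7 (r = 0.92), Stk35 (r = 0.89), 2310067E19Rik (r = 0.87) and Abcb10 (r = 0.87). Spearman's rho for these was lower, between 0.56 and 0.73. They were picked for likeness to Gdpd3 on these arrays, heart included, so their genotype and drug values are a description. Trappc2l encodes a subunit of a vesicle tethering complex, and read 10.77, 10.72 and 10.67 in KO soleus, against 9.89, 9.80 and 9.79 in WT soleus. In quadriceps it read 10.53, 10.52 and 10.43 in KO mice, against 9.53, 9.54 and 9.63 in WT mice. KO muscle and heart (10.61 to 10.77 over both heart groups) thus lay together above WT muscle, as for Gdpd3, though with a KO minus WT difference of 0.89 in soleus and 0.93 in quadriceps.

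Elovl7, an elongase of long-chain fatty acids, had a muscle mean below the filter level, so it was not tested there, and read 7.18, 6.76 and 6.86 in KO soleus, against 5.90, 5.22 and 5.59 in WT soleus. It read 6.87, 6.84 and 6.78 in KO quadriceps, against 5.40, 5.09 and 5.41 in WT quadriceps. Every WT array lay below 6.19, so KO soleus was at least 1.67-fold higher and KO quadriceps at least 1.56-fold higher. In heart its mean was 6.82 with FG-4497 and 7.34 with vehicle, a difference of -0.51 that is given without a test. KO minus WT was 0.35 in soleus and 0.40 in quadriceps for the kinase gene Stk35, 0.68 and 0.40 for 2310067E19Rik, and 0.42 and 0.38 for Abcb10, a mitochondrial transporter linked to haem synthesis. Trappc2l and Abcb10 lie on chromosome 8, 2.31 and 0.961 megabases from Egln1, the gene that was floxed. Elovl7 lies on chromosome 13, Stk35 on chromosome 2 and 2310067E19Rik on chromosome 4, and Gdpd3, too, lies on another chromosome than Egln1. The part of nearness to Egln1 in these values was not tested.

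**Figure D4:**
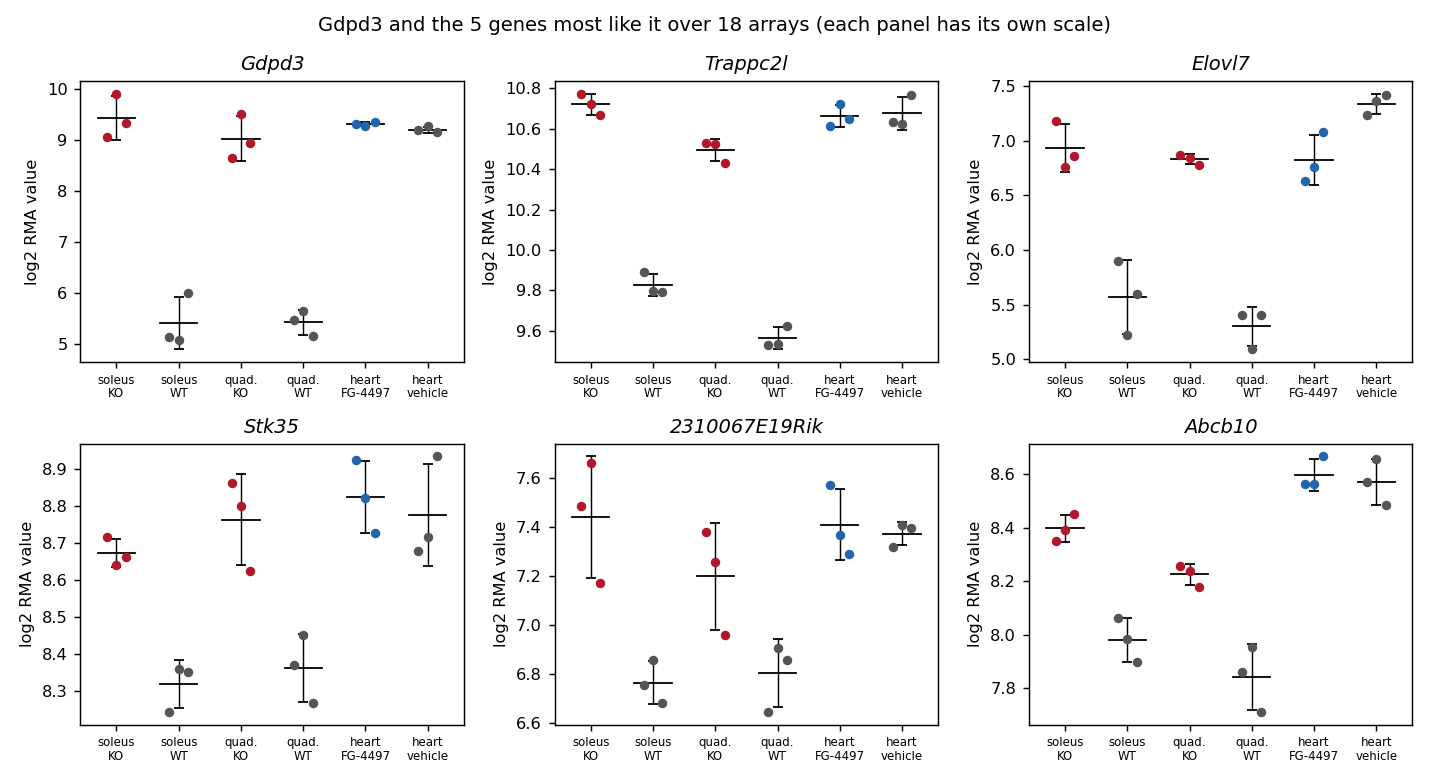
Log2 RMA values of Gdpd3 and of the 5 genes with the highest Pearson r to it over 18 arrays, each panel with its own scale, with group mean and SD (n = 3; quad. stands for quadriceps). In all 6 panels the KO muscle arrays lie above the WT arrays of the same muscle and heart lies with or above KO muscle, but the KO minus WT difference runs from 0.35 to 0.93 in 4 of the genes, against 3.59 and 4.01 for Gdpd3.

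For the other members, the most alike genes were Rbm20, a splicing regulator of titin (r = 0.99 with Gdpd1), Heca (r = 0.98 with Gdpd5), Zfp641 (r = 0.97 with Gde1), Nxn, which encodes nucleoredoxin (r = 0.98 with Napepld), and Mylk, the myosin light chain kinase (r = 0.76 with Gdpd2).

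The wider pathway was read from 6 lists holding 89 genes, of which 71 were tested in muscle and 69 in heart. In soleus, 0 of the 71 passed the limma test between KO and WT, with 9 at an unadjusted p under 0.05 (963 of all 13318 genes), and their median difference was -0.0143 beside 0.000948 over all genes. In quadriceps 1 of 71 passed (1.41%, beside 0.683% of all genes), with a median of -0.0123 beside -0.0162. In heart 1 of 69 passed (1.45%, beside 1.77% of all genes), with a median of 0.0178 beside -0.00195. The difference between the muscles in the genotype effect passed for 0 of 71, with 5 at an unadjusted p under 0.05.

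The gene that passed, in quadriceps as in heart, was Lpar6, a receptor for the lipid that Gdpd3 and Gdpd1 make. It was 1 of 3 LPA receptor genes tested. Lpar4 differed by 0.28 in quadriceps, 0.25 in soleus and -0.31 in heart (limma adjusted p = 0.252, 0.558 and 0.23). Lpar1 differed by 0.08, 0.05 and 0.04 in the same order (limma adjusted p = 0.883, 0.98 and 0.964). In quadriceps Lpar6 read 8.13, 7.88 and 7.86 in KO mice, against 7.23, 7.51 and 7.46 in WT mice. In soleus it read 8.74, 8.65 and 8.56 in KO mice, against 8.18, 8.06 and 8.37 in WT mice. KO arrays lay above WT arrays in both muscles, by 0.56 in quadriceps (SE 0.10, limma adjusted p = 0.0246) and by 0.45 in soleus (SE 0.10, adjusted p = 0.11). In heart it read 8.22, 8.23 and 8.12 with FG-4497, against 8.61, 8.52 and 8.67 with vehicle, a difference of -0.41 (SE 0.08, limma adjusted p = 0.0337). All FG-4497 hearts lay below all vehicle hearts, whereas all KO arrays of a muscle lay above its WT arrays. By mean log2 level per array, some marker lists also did not overlap between the heart groups. The 6 endothelial genes averaged 10.38 to 10.52 with FG-4497 and 10.22 to 10.29 with vehicle. Their single differences ran from -0.33 to 1.44 with a median of -0.0053, and 1 of the 6 passed, as higher (16.7%, beside 1.77% of all genes). The 7 fibroblast genes averaged 9.61 to 9.69 with FG-4497 and 9.71 to 9.81 with vehicle (median difference -0.12, 0 of the 7 passed). The 10 slow-fibre genes averaged 11.33 to 11.39 with FG-4497 and 11.40 to 11.45 with vehicle (median difference -0.03, 0 of the 10 passed). The part of these cell types in the heart values of Lpar6 was not tested.

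Both Lpar6 calls were close to the threshold. In quadriceps the call was lost in 6 of 16 alternatives, namely without KO replicate 1 (adjusted p = 0.0908), without WT replicate 1 (0.0698), 2 (0.0511) or 3 (0.0716), with the title number as a replicate block (0.0616) and with quadriceps arrays alone (0.0919). In heart it was lost in 9 of 13 alternatives, including every one that left out an array (adjusted p from 0.057 to 0.157). Lpar6 (chr14:73237891-73240358) lies inside Rb1 (chr14:73192858-73325951), and the strand each probe set reads was not examined. Rb1, named here after its values were seen, differed by 0.56 between KO and WT quadriceps (SE 0.07, limma adjusted p = 0.00241), by 0.14 in soleus (adjusted p = 0.709) and by 0.03 in heart (adjusted p = 0.97). Its part in the Lpar6 values was not tested.

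**Figure D5:**
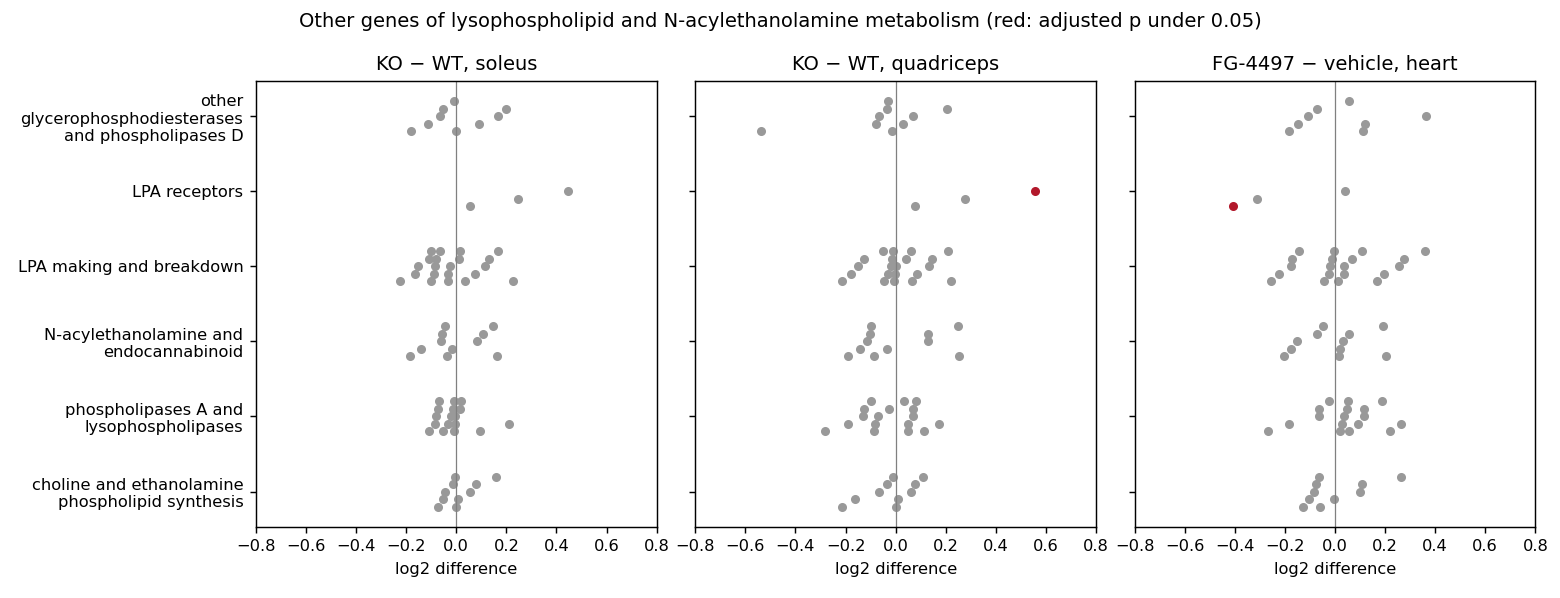
Log2 differences of the tested genes of 6 pathway lists, 1 point per gene (vertical offsets within a list only separate points), for KO minus WT in soleus and quadriceps and FG-4497 minus vehicle in heart. Nearly all points lie within 0.4 of 0 and only Lpar6 is coloured as passing, at 0.56 in quadriceps and -0.41 in heart.

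None of the other lists had a member that passed between KO and WT or between FG-4497 and vehicle. Among other glycerophosphodiesterases and phospholipases D, the widest differences were 0.20 for Enpp6, a choline-specific phosphodiesterase, in soleus (limma adjusted p = 0.629), -0.54 for Pld5 in quadriceps (adjusted p = 0.248) and 0.36 for Gpld1, the phospholipase D of glycosylphosphatidylinositol anchors, in heart (adjusted p = 0.063). Among enzymes that make or break down LPA they were 0.23 for the acyltransferase Mboat2 in soleus (adjusted p = 0.929), 0.22 for the acyltransferase Agpat2 in quadriceps (adjusted p = 0.482) and 0.36 for the phosphatase Plpp1 in heart (adjusted p = 0.218). In the N-acylethanolamine and endocannabinoid list they were -0.19 for Plaat3 in soleus (adjusted p = 0.634), 0.25 for the nuclear receptor Ppara in quadriceps (adjusted p = 0.412) and 0.20 for the lipase Abhd6 in heart (adjusted p = 0.397). The phospholipase A list was led by Pla2g4a in soleus (0.21, adjusted p = 0.847) and in heart (-0.27, adjusted p = 0.455) and by Pla2g7 in quadriceps (-0.28, adjusted p = 0.544). In choline and ethanolamine phospholipid synthesis, Selenoi differed by 0.16 in soleus (adjusted p = 0.512), Cept1 by -0.21 in quadriceps (adjusted p = 0.337) and Chka, choline kinase alpha, by 0.26 in heart (adjusted p = 0.344).

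The same lists differed widely between the muscles. In KO mice 20 of 71 genes were higher and 17 lower in soleus than in quadriceps (52.1%, beside 41.9% of all genes), and in WT mice 24 were higher and 19 lower (60.6%, beside 45.7%). Over all genes, 2910 were higher and 2667 lower in KO mice, and 2840 were higher and 3249 lower in WT mice. Markers also moved with the muscle. Higher in soleus were 6 of 6 endothelial genes in KO mice and 5 of 6 in WT mice, 4 of 4 and 3 of 4 smooth muscle genes, and 10 of 10 slow-fibre genes in both. Of 10 fast-fibre genes, 7 were lower and 1 higher in KO mice, and 8 were lower and 1 higher in WT mice. In the remaining marker lists 0% to 50% of genes passed in KO mice and 28.6% to 57.1% in WT mice. The part of these cell types in the values of the pathway lists was not tested. Of 21 enzymes that make or break down LPA, 10 were higher and 2 lower in soleus in KO mice (57.1%), and 11 were higher and 2 lower in WT mice (61.9%). Plpp1, a phosphatase that destroys LPA, was higher in soleus by 1.08 in KO mice (limma adjusted p = 1.18e-08) and by 1.11 in WT mice (adjusted p = 7.44e-09). Agpat2 was higher by 0.94 in KO mice (adjusted p = 6.57e-06) and by 1.22 in WT mice (adjusted p = 4.59e-07), while Agpat1, which like Agpat2 turns LPA into phosphatidic acid, was lower (-0.59 in KO mice, adjusted p = 3.27e-05, and -0.78 in WT mice, adjusted p = 2.24e-06). Lpar6 was higher in soleus by 0.69 in KO mice (adjusted p = 3.27e-05) and by 0.80 in WT mice (adjusted p = 7.24e-06).

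Agpat3, of the same enzyme family, was higher by 0.80 in KO mice (limma adjusted p = 2.04e-07) and by 0.81 in WT mice (adjusted p = 1.45e-07).

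Among 17 phospholipases A and lysophospholipases, 2 were higher and 7 lower in soleus in KO mice (52.9%, beside 41.9% of all genes), and 3 were higher and 9 lower in WT mice (70.6%, beside 45.7%). The plasma-type enzyme Pla2g7, which hydrolyses platelet-activating factor, was lower in soleus (-2.60 in KO mice, limma adjusted p = 1.76e-08, and -2.87 in WT mice, adjusted p = 5.61e-09), and the secreted phospholipase Pla2g12a was higher (2.25 in KO mice, adjusted p = 9.14e-10, and 2.38 in WT mice, adjusted p = 4.3e-10). Ddhd1, a phospholipase A1, was higher by 0.81 in KO mice and 0.84 in WT mice, and Pla2g6 differed by -0.55 and -0.59. Among 9 other phosphodiesterases and phospholipases D, 1 was higher and 4 lower in soleus in KO mice (55.6%), and 3 were higher and 3 lower in WT mice (66.7%). Pld5 lay below the filter level of 6.19 on all soleus arrays and above it on all quadriceps arrays, so soleus was at least 2.07-fold lower in KO mice and at least 3.00-fold lower in WT mice. It passed the filter only through quadriceps, so no p is given for it here, although the counts above include it. Lower in soleus, too, was Gpcpd1, an enzyme that frees choline metabolites from glycerophosphocholine (-0.81 in KO mice, limma adjusted p = 1.35e-05, and -0.78 in WT mice, adjusted p = 1.72e-05). Pld2, which makes phosphatidic acid from phosphatidylcholine, differed by -0.60 in KO mice (adjusted p = 4.67e-05) and by -0.80 in WT mice (adjusted p = 3.11e-06). Enpp6 lay below the filter level on all quadriceps arrays, and KO soleus was at least 1.23-fold higher than KO quadriceps. It passed the filter only through soleus, so no p is given for it either, although the KO count above includes it. Pld1 was higher in soleus by 0.22 in WT mice (adjusted p = 0.0192).

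The N-acylethanolamine and endocannabinoid list had 3 of 11 genes higher and 1 lower in soleus in KO mice (36.4%, beside 41.9% of all genes), and 4 higher and 2 lower in WT mice (54.5%, beside 45.7%). Ppara, a nuclear receptor that N-acylethanolamines activate, was higher by 1.72 in KO mice (limma adjusted p = 3.4e-08) and by 1.83 in WT mice (adjusted p = 1.47e-08). The monoacylglycerol lipase gene Mgll was higher by 1.35 in KO mice (adjusted p = 2.21e-07) and by 1.43 in WT mice (adjusted p = 1.06e-07). Plaat3, an acyltransferase of the list, was higher by 1.05 in KO mice (adjusted p = 1.3e-07) and by 1.14 in WT mice (adjusted p = 5.09e-08). Dagla, which makes the endocannabinoid 2-arachidonoylglycerol, was lower (-0.87 in KO mice, adjusted p = 3.52e-08, and -1.03 in WT mice, adjusted p = 6.83e-09).

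Of 10 genes of choline and ethanolamine phospholipid synthesis, 3 were higher and 3 lower in soleus in KO mice (60%, beside 41.9% of all genes), and 2 were higher and 3 lower in WT mice (50%, beside 45.7%). Chpt1, which completes phosphatidylcholine, was higher by 0.57 in KO mice (limma adjusted p = 7.56e-07) and by 0.62 in WT mice (adjusted p = 2.64e-07), while Cept1, which completes phosphatidylcholine and phosphatidylethanolamine, was lower (-0.69 in KO mice, adjusted p = 9.79e-06, and -0.83 in WT mice, adjusted p = 1.47e-06). Pcyt1a, which encodes the rate-setting enzyme of phosphatidylcholine synthesis, was lower (-0.42 in KO mice, adjusted p = 0.000887, and -0.48 in WT mice, adjusted p = 0.00024), as was Pemt, which methylates phosphatidylethanolamine (-0.37 in KO mice, adjusted p = 0.000601, and -0.44 in WT mice, adjusted p = 0.000144).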

How the data were processed

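RNA of 18 mouse tissue samples was measured on whole-transcript arrays. Per the submitters' processing notes, the authors made the deposited log2 values with RMA, which corrects background, normalizes quantiles and summarises probes. The sources used here name no RMA version and do not say which arrays were normalized together. No column was left out (0 not used), and no 2 columns were identical. Of 35556 probe sets, 21789 named 1 gene, 1621 several and 12146 none in the platform annotation. For 21698 of the 21789 the symbol was taken from a GRCm38.p6 gene table by gene identifier, whether or not it differed. The brightest probe set stood for each of 19938 genes. A filter removed genes whose mean lay under the 40th percentile of means (6.19 for muscle, 6.26 for heart).

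Tests used limma 3.58.1 in R 4.3.3. One fit held the 12 muscle arrays, with a mean per group and the animal as random block (correlation 0.17), and another the 6 heart arrays. Gdpd3 was fitted with the other genes in muscle, but its p-values there are not reported because it was chosen on those arrays. It is therefore among the 13318 genes tested, and among those called between KO and WT in each muscle. A gene passed where its Benjamini-Hochberg adjusted p over all tested genes was under 0.05. The fits were tried on simulated data with known changes, drawn without correlation between muscles of the same mouse. An exact permutation test of 3 arrays against 3 cannot go below p = 0.1, and limma was used because it pools variance over genes. The pairing comes from numbers in the labels read as animal numbers: over the 6 pairs, the correlation of deviations from the group mean was -0.0005 to 0.377, and 4 exceeded 0.1. Replicate numbers in the titles gave 9 pairs at r from -0.285 to 0.175, with 2 above 0.1.

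Named genes were all members, Egln1, up to 4 called genes of each pathway list (or the one with the widest difference), the 5 genes most correlated with Gdpd3 and the 1 most correlated with each other member, and 3 measured neighbours of Gdpd3 on each side. The members and lists were chosen with earlier results of these data known. Alternatives changed the filter, normalization, prior, array weights, probe-set rule, block, arrays fitted and fibre content, or left out 1 array. Motifs were searched in the 250 bases before the start of RefSeq genes.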

Additional observations from a re-analysis of the deposited data

How the results depend on the processing

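Between KO and WT in soleus and quadriceps, in the difference of these, and in heart, 0 members other than Gdpd3 passed in the fits reported and in all alternatives run. Between soleus and quadriceps 2 members other than Gdpd3 passed in KO and in WT mice, but 0 in either with the slow-fibre level as covariate, which follows the muscle itself (all genes called then fell to 39 in KO mice and 45 in WT mice). With the title number as a replicate block or with no replicate block, 2 members passed in each genotype, and with the animal as a fixed replicate block 2 did in KO mice and 3 in WT mice, where Gdpd1 was added (limma adjusted p = 0.0165). Gdpd1 in WT mice also passed with a trended prior (0.0463) and with array weights (0.0319).

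Of 503 values of single tested genes under alternatives, 450 kept direction and side of the threshold, 18 lost and 4 gained the call and 31 changed sign; the cause was not tested, and all sign changes were in differences that did not pass, other than Gde1 and Gdpd5 between the muscles. With slow-fibre level as covariate, soleus minus quadriceps was 0.0699 for Gde1 and 0.107 for Gdpd1 in KO mice, and 0.107 for Gde1, 0.0809 for Gdpd1 and 0.0237 for Gdpd5 in WT mice, and the difference of genotype effects was -0.0367 for Gde1. With quantile normalization repeated, Gde1 was -0.0091 in that difference and -0.0062 in heart. With array weights, Gdpd5 was 0.0474 in that difference. Leaving out 1 array, ranges of tested members that crossed 0 were -0.034 to 0.0619 (Gde1) and -0.125 to 0.0307 (Napepld) in heart, -0.122 to 0.0672 (Gde1) between KO and WT in soleus, and -0.0871 to 0.0209 (Gde1) and -0.0039 to 0.173 (Gdpd1) in quadriceps. In the difference of genotype effects they were -0.0766 to 0.113 (Gde1), -0.0222 to 0.155 (Gdpd1), -0.106 to 0.118 (Gdpd5) and -0.0279 to 0.14 (Napepld). Of 183 values given without a test (Gdpd2, and Gdpd3 in muscle), 7 changed sign: Gdpd2 between KO and WT soleus was 0.0024 without WT replicate 1, Gdpd3 between KO muscles was -1.25 with the slow-fibre level as covariate, and Gdpd3 between WT muscles, where it lay below the filter level, changed sign in 5.

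The count of all genes called moved more than the members: 7 to 62 in soleus (24 as reported), lowest without KO replicate 1 and highest with array weights, 25 to 197 in quadriceps (91), lowest with that muscle's arrays alone and highest with array weights, 0 to 4 for the difference of genotype effects (0), highest without soleus WT replicate 3, and 137 to 373 in heart (238), lowest without vehicle replicate 3 and highest with a trended prior.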
